A study of Arabis alpina with 12 samples.

Results

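In young leaves of Arabis alpina, 1568 of 24657 listed genes carried H3K27me3 and none of the other marks profiled. They made up 6.36% of the listed genes (exact 95% interval 6.06% to 6.67%) and 48.5% of the 3235 listed genes with H3K27me3. The genes were selected on the domain lists themselves: at least 200 bp of the span from gene start to gene end had to lie in H3K27me3 domains, with under 200 bp in the domains of each of H3K4me3, H3K27me1 and 5mC. Values of these marks over the genes are therefore given as descriptions. mRNA coverage was not used in the choice.

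Arabis alpina is a perennial relative of Arabidopsis, and the plants were of accession Pajares, grown in soil at 22.5 °C with 16 h light and 8 h dark. Chromatin immunoprecipitation with antibodies to H3K4me3, H3K27me3 or H3K27me1 was sequenced in 2 libraries per mark beside 1 input library, methylated DNA was immunoprecipitated with an antibody to 5mC in 2 libraries beside 2 inputs, and mRNA was sequenced in 1 library. All libraries came from untreated leaves of the same accession, and no genotypes, treatments or times were compared. The authors gave 1 domain list per mark for the series, so no value here has a replicate error and sequencing depth is unknown. Intervals below cover counting error only, and with 1 mRNA library no p-value was computed across genes.

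H3K27me3 is set by Polycomb repressive complex 2 and goes with genes that are held silent in a tissue or stage. In Arabidopsis it lies mostly over single genes, among them many regulators of development, and it keeps the flowering repressor FLC silent after cold. PEP1, the counterpart of FLC in Arabis alpina, controls the seasonal flowering of this perennial. H3K4me3 marks the starts of active genes, and H3K27me1 and much of 5mC are found on silent repeats and transposons. The files do not pair gene identifiers with names, so neither PEP1 nor any marker of leaf tissue could be looked up, and genes are named by identifier only, at most 2 for each kind described.

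The selection left little of the other marks on the genes. Every other mark was at 0 bp in 1480 of the 1568 genes (94.4%). Below the minimum, 64 genes held some H3K4me3, 24 held some 5mC and 2 held some H3K27me1. Few genes lay near the minimum of 200 bp. Just above it were Aa_G392350 on chromosome 8 (35384498 to 35384788) and Aa_G71250 on chromosome 3 (11330198 to 11330519), each with 203 bp of H3K27me3, and their mRNA coverage was 8.65 and 1.63. Just below it, among genes without a mark, were Aa_G691900 on chromosome 8 (4868204 to 4868557) with 197 bp and Aa_G332430 on scaff_48021_1 (47206 to 51231) with 195 bp. Their mRNA coverage was 1 and 1.36. In all, 8 of the selected genes held 200 to under 250 bp, and 10 genes without a mark held from 150 to under 200 bp.

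The genes were spread over all 8 chromosomes. They made up between 5.81% of the listed genes on chromosome 8 (251 of 4323, exact 95% interval 5.13% to 6.55%) and 8.05% on chromosome 4 (182 of 2261, 6.96% to 9.25%). Chromosome 7 was the next highest with 7.50% (6.43% to 8.68%), and its interval overlapped that of chromosome 4. On unplaced scaffolds the share was 4.75% (115 of 2422, 3.94% to 5.67%), and these genes lay on 97 different scaffolds.

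H3K27me3 covered most of the span in most of these genes, and the whole of it in a minority. The median span was 1915 bp (95% interval 1854 to 1976), against 2091 bp for all listed genes. The median length inside H3K27me3 was 1110 bp, and the median share of the span was 70.4% (quartiles 40.0% and 93.1%). Whole coverage, with every base between start and end inside a domain, was found in 290 genes (18.5%, exact 95% interval 16.6% to 20.5%). At least 50% of the span was covered in 1050 genes (67.0%), and under 10% in 31 (1.98%). Counted from 90% of the span, the share was 28.4%.

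**Figure D1:**
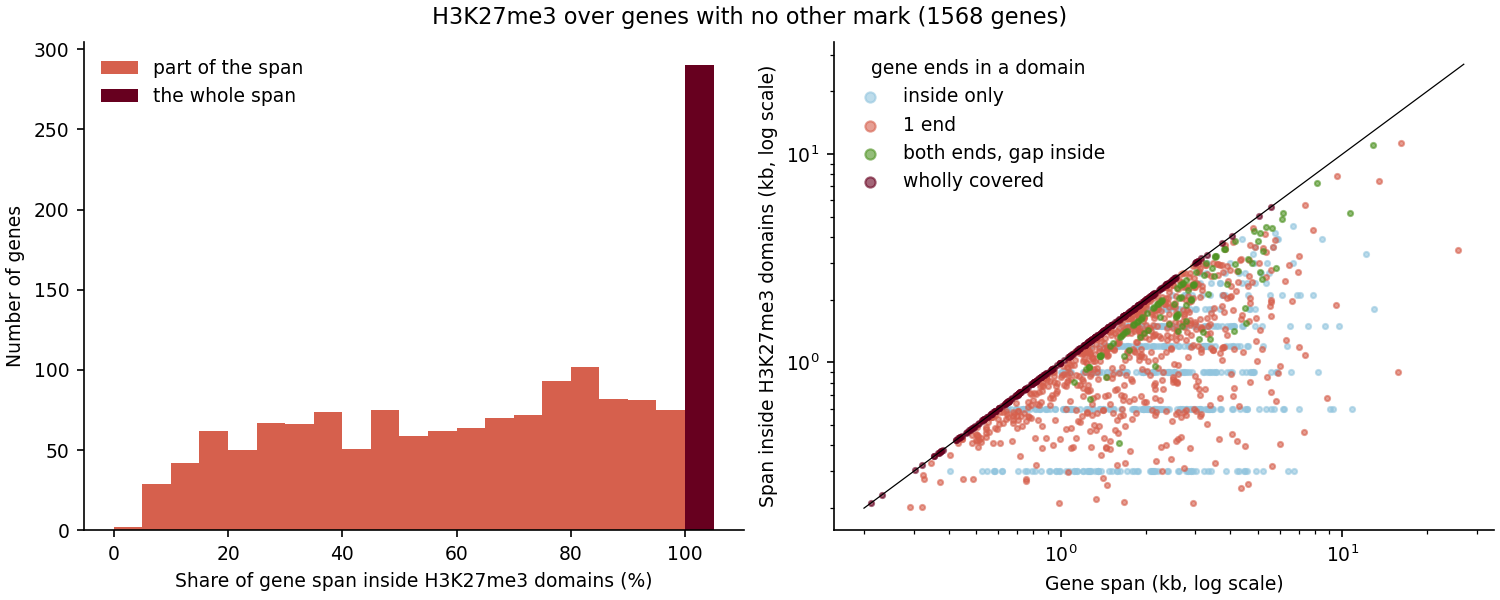
Left, number of the 1568 genes by share of the span inside H3K27me3 domains in steps of 5%; the dark bar drawn at 100% holds the 290 wholly covered genes. Right, span against the length inside H3K27me3 (both in kb on log scales), 1 point per gene, coloured by which gene ends lie in a domain; the line marks full coverage, and the rows of points reflect the 300 bp steps of the domain list.

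Whole coverage was more frequent in shorter genes. Of the 44 genes under 500 bp, 63.6% were wholly covered (exact 95% interval 47.8% to 77.6%), and of the 247 genes of 500 bp to 1 kb, 39.3% (33.1% to 45.7%). The share was 21.5% at 1 to 2 kb, 10.2% at 2 to 3 kb, 3.38% at 3 to 5 kb and 2.06% in the 97 genes of 5 kb or more. The marked length went the other way, from a median of 395 bp in genes under 500 bp to 1500 bp at 3 to 5 kb and 2100 bp at 5 kb or more. The median share of the span was 100% in the shortest class and 30.4% at 5 kb or more. The choice of genes and the list bear on this trend. At least 200 bp had to be marked, domains come in windows of 300 bp, and the marked length cannot exceed the span.

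The longest wholly covered genes were exceptions to that trend. Aa_G190090 on chromosome 3 (26544248 to 26549822) lay with its 5575 bp inside 1 domain of 7500 bp, which ran 1147 bp past its left end and 778 bp past its right end. Its mRNA coverage was 1.54, while the neighbouring listed genes had 22.3 and 7.65. Aa_G391070 on chromosome 2 (1319723 to 1324783), of 5061 bp, lay in a domain of 10200 bp that ran 4822 bp past its left end, across the 429 bp interval to Aa_G391060, a gene with both H3K4me3 and H3K27me3. Its mRNA coverage was 1.49. The longest gene of all, Aa_G452510 on chromosome 4 (3691918 to 3717659), spanned 25742 bp with 5 separate domains that covered 13.5% of it, and its mRNA coverage was 1.19.

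Where coverage was partial, at least 1 end base of the gene was marked in most cases. Both end bases of the gene were marked with a gap inside in 99 genes (6.31%), 1 end base was marked in 678 (43.2%), and neither was in 501 (32.0%). In the last class the mark began a median of 138 bp from the nearer end, which is less than 1 window of 300 bp. Whether ends were marked more often than the extent of the mark alone would give was not tested. In all genes of the set of at least 2 kb, H3K27me3 covered 44.5% of bp centred 75 bp inside the end and 58.0% centred 375 bp inside. Domains in genes with neither end base marked covered a median of 42.5% of the span, against 70.3% for genes marked at 1 end. In genes marked at 1 end, the stretch between the other end and the first marked base had a median of 271 bp. Strand is not given, so starts and stops of genes could not be told apart.

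Several domains lay on 1 gene in 379 cases, and the gap between them was mostly the smallest the list allows. A single domain lay on 1189 genes (75.8%), 2 on 296 (18.9%) and 3 to 5 on 83 (5.29%). The median gap was 300 bp, which is 1 window of the list, with an upper quartile of 750 bp. Joining domains across gaps of up to 600 bp raised the share of wholly covered genes to 26.8%. Of the 131 genes gained, 69 were among the 99 with both ends marked and 62 among those marked at 1 end. The 99 genes had a median span of 2673 bp, of which a median of 78.2% was marked.

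Genes with both H3K4me3 and H3K27me3, and no H3K27me1 or 5mC, were less fully covered, though of like span. Their median span was 1951 bp (n = 1232), and H3K27me3 covered a median of 55.2% of it. Whole coverage was found in 9.90% (exact 95% interval 8.29% to 11.7%), and neither end base was marked in 49.4%. In genes of at least 2 kb, an end was taken as marked where H3K27me3 held 150 bp or more of the outermost 300 bp. By that measure both ends were marked in 26.5% of the 737 genes with H3K27me3 alone (23.3% to 29.8%) and in 13.7% of the 597 genes with H3K4me3 as well (11.1% to 16.8%). These differences were not tested, since the same marks chose the genes.

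The domains reached only a short way past the genes. Of the 3136 gene ends, 1446 (46.1%) were crossed by a domain that ran on outside, and the median reach there was 221.5 bp (95% interval 204 to 238). The reach was under 300 bp, the length of 1 window, at 58.4% of these ends, so its size is close to the resolution of the list. It was 1 kb or more at 211 ends (14.6%) and 3 kb or more at 27 (1.87%). By gene, 504 (32.1%) had no domain running past either end, 682 (43.5%) had it at 1 end and 382 (24.4%) at both. Among genes with H3K4me3 as well, 12.7% had it at both ends.

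**Figure D2:**
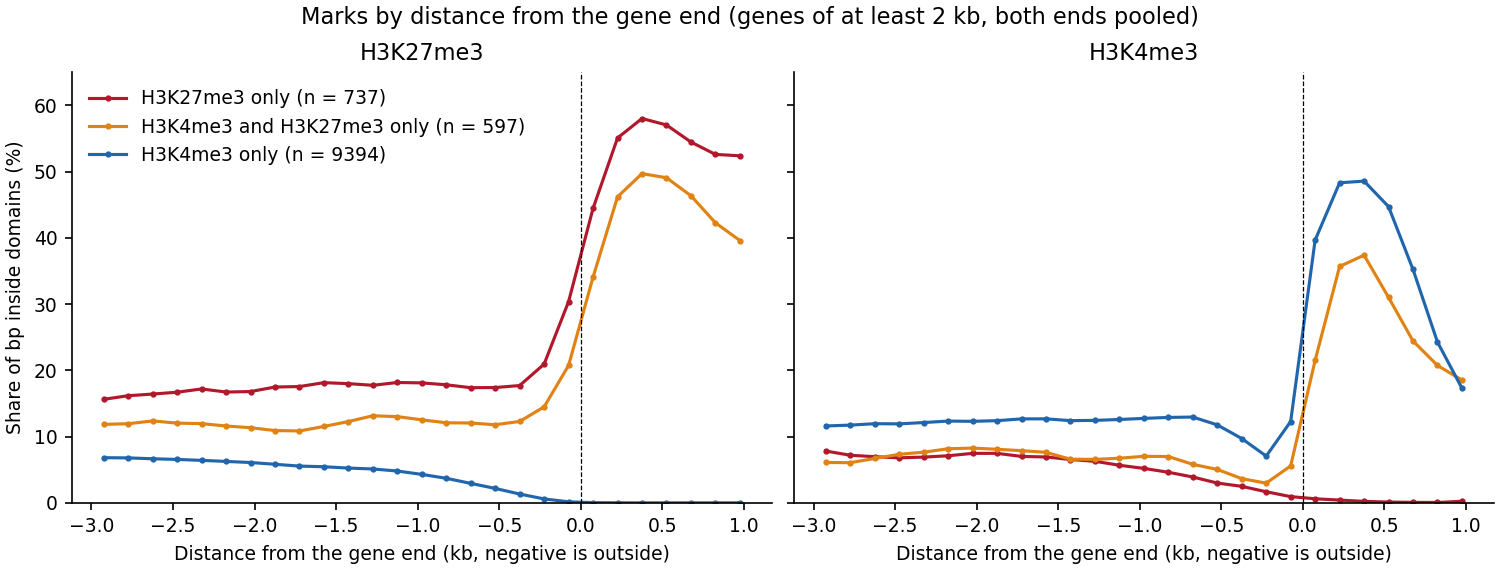
Share of bp inside H3K27me3 domains (left) and H3K4me3 domains (right) by distance from the gene end in kb, in steps of 150 bp with both ends pooled, for genes of at least 2 kb with H3K27me3 only (n = 737), with H3K4me3 and H3K27me3 only (n = 597) and with H3K4me3 only (n = 9394). H3K27me3 over genes that carry it alone peaks at 58.0% inside the end and is at 15.6% to 18.2% beyond 300 bp outside.

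The profile across gene ends showed a drop at the end itself. The choice of genes bears on this drop, since H3K27me3 was required inside the span and not outside it. In genes of at least 2 kb, H3K27me3 covered 58.0% of bp centred 375 bp inside the end, 30.4% centred 75 bp outside and 17.7% centred 375 bp outside. It was still at 15.6% centred 2925 bp outside. The corresponding values were 11.8% outside genes with H3K4me3 and H3K27me3 and 6.81% outside genes with H3K4me3 only. Genes with both marks had a like drop at the end. Their values were 49.7% centred 375 bp inside, and 20.7% and 12.3% centred 75 and 375 bp outside. Within 3 kb of an end, 56.9% of the 1568 genes (exact 95% interval 54.4% to 59.4%) had a separate H3K27me3 domain that did not touch the gene. This held for 50.9% of genes with H3K4me3 and H3K27me3, 26.5% of genes with H3K4me3 only and 20.6% of genes with no mark. The flanks of these sets are not alike. The median interval to the neighbouring listed gene was 5124 bp beside the 1568 genes and 5744 bp beside genes with H3K4me3 and H3K27me3. It was 2049 bp beside genes with H3K4me3 only and 1665 bp beside genes with no mark, so their flanks more often held other genes. The part of this in the differences was not tested.

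Domains seldom ran into the next listed gene. At the 1390 crossed ends with a listed gene beyond them, the domain entered that gene at 45 (3.24%, exact 95% interval 2.37% to 4.31%). Where an interval lay between them, the reach filled a median of 3.82% of it. The farthest reach was 13343 bp. It belonged to Aa_G642130 on scaff_58919_1 (13344 to 15461), the one gene on the longest domain, which filled positions 1 to 16500 of that scaffold. The gene was wholly covered, no other listed gene lay on the scaffold, and its mRNA coverage was 1.

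In terms of domains, 2036 of the 23093 H3K27me3 domains lay on these genes. Another 2164 lay on other listed genes only, and 18893 touched no listed gene. The domains described next are the 2036. Their median length was 900 bp, as over the whole list. Of them, 889 (43.7%) lay wholly inside 1 gene, 15 (0.737%) touched 2 of the genes, and 19 (0.933%) also touched a listed gene outside the set. No domain touched more than 2 of them. Of the 2700 kb in these domains, 74.2% lay inside the genes' spans. The authors' score, taken per kb of domain, had a median of 531.7 (95% interval 525 to 538) on these genes, 514.8 (507 to 523) on other listed genes and 462.7 (460 to 463) on domains away from listed genes.

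mRNA from these genes was low. Their median coverage was 1.48 (95% interval 1.41 to 1.55; quartiles 1 and 2.81), where coverage is the authors' signal over the exons of a gene, by the name of their table, and 1 is the lowest value given. The median was 5.77 over all listed genes, 2.03 (1.96 to 2.13) over the 3671 genes with no mark, 3.98 (3.65 to 4.38) over genes with H3K4me3 and H3K27me3, and 8.05 (7.87 to 8.20) over the 16545 genes with H3K4me3 only. Among the genes with H3K27me3 alone, 523 (33.4%, exact 95% interval 31.0% to 35.7%) were at exactly 1, against 8.86% of all listed genes and 22.8% of genes with no mark. Whole leaves were used, so fewer cells with a transcript and less RNA per cell cannot be told apart. No test was possible with 1 library.

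Median mRNA differed little between wholly and partly covered genes. Median coverage was 1.56 (95% interval 1.38 to 1.74) for the 290 wholly covered genes and 1.46 (1.40 to 1.54) for the 1278 partly covered ones. That is a difference of 0.05 in median log2(coverage + 1), with bounds from the separate intervals of -0.10 to 0.19. Within genes of 1 to 3 kb the difference was -0.08. In each span class up to 3 kb the median was lower for wholly than for partly covered genes, with overlapping intervals. It was 1.86 and 2.29 under 500 bp, and 1.774 and 1.777 at 500 bp to 1 kb. At 1 to 2 kb it was 1.22 and 1.40, and at 2 to 3 kb 1.36 and 1.45. Wholly covered genes were also shorter, with a median span of 1215 bp against 2131.5 bp. From under 25% of the span to 75% and more short of whole coverage, the medians were 1.41, 1.52, 1.54 and 1.35, with overlapping intervals. Coverage of exactly 1 was held by 33.4% of wholly covered and 33.3% of partly covered genes. Among the partly covered it varied more: from the smallest share of the span to the largest it was 32.4%, 26.1% (exact 95% interval 21.5% to 31.2%), 33.9% and 38.8% (34.2% to 43.6%). The intervals of the 25% to 50% class and the highest class did not overlap. These classes were picked as the lowest and the highest, gene span was not adjusted for, and the difference was not tested. In genes marked at both ends with a gap inside, the share at exactly 1 was 42.4% (32.5% to 52.8%).

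**Figure D3:**
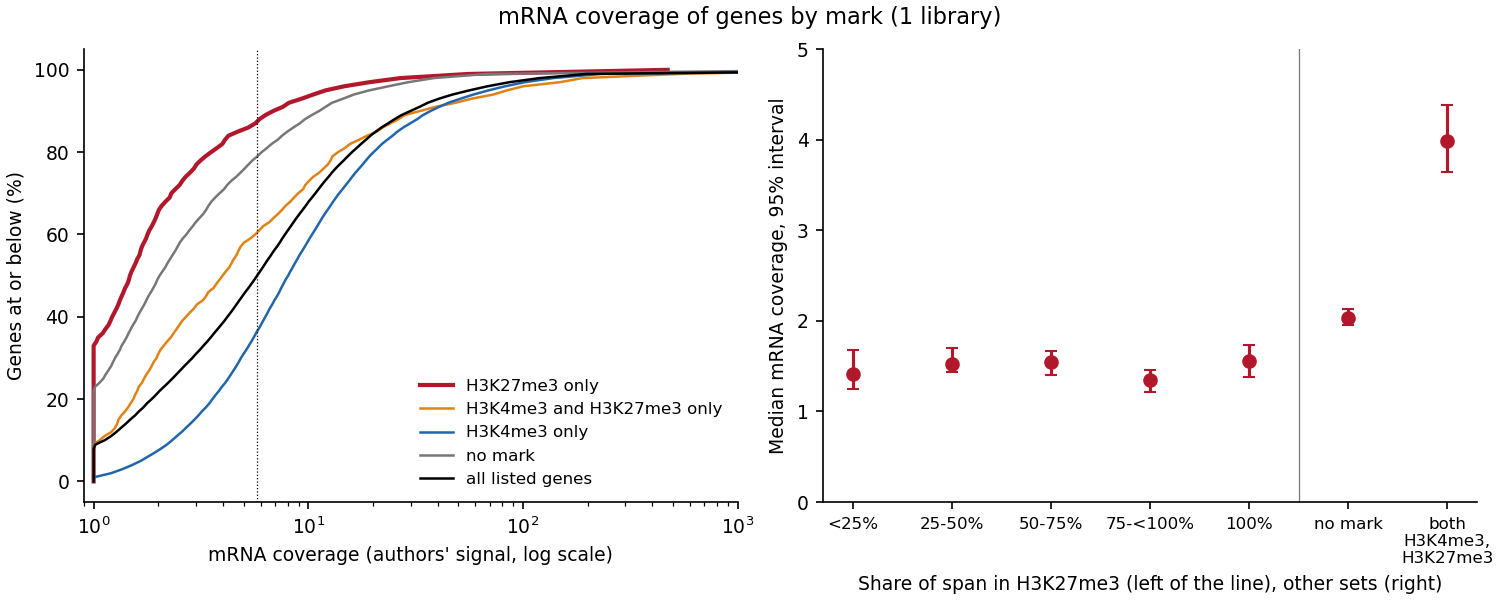
Left, cumulative share of genes (%) by mRNA coverage (authors' signal, log scale) for genes grouped by mark; the dotted line is the median of all listed genes, 5.77. Right, median mRNA coverage with its 95% interval for genes with H3K27me3 only by share of span covered, and for genes with no mark and with H3K4me3 and H3K27me3; the 5 classes with H3K27me3 only sit between 1.35 and 1.56.

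Across the 1568 genes, mRNA coverage was nearly unrelated to the share of the span in H3K27me3 (Spearman rho = -0.02, Pearson r of log2(coverage + 1) = 0.01). These coefficients are across genes of 1 library and are given as a description. With 33.4% of the genes tied at the lowest value of 1, they had limited room to show a relation. Genes split into 3 equal groups by the highest score per kb of a domain on them had median coverages of 1.58 (95% interval 1.45 to 1.68), 1.46 and 1.43 (1.32 to 1.52) from the lowest group to the highest. By position of the mark, the median was 1.46 (1.38 to 1.58) for genes marked at 1 end and 1.504 (1.40 to 1.63) for those marked inside only. It was 1.22 (1 to 1.49) for the 99 genes marked at both ends with a gap inside.

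A minority of the genes gave mRNA above the median of all listed genes. These were 196 of 1568 (12.5%, exact 95% interval 10.9% to 14.2%), against 50% of all listed genes by definition and 21.0% (19.7% to 22.4%) of genes with no mark. Their own median coverage was 10.3 (9.21 to 11.8). Coverage above 10 was reached by 100 of the 1568 (6.38%), against 32.1% of all listed genes. Coverage above 50 was reached by 18 (1.15%), against 5.66% of all listed genes, and above 100 by 10 (0.638%), against 2.50%. The 10 highest held 29.3% of the summed coverage of the 1568 genes.

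The genes above the median differed little from the rest in the median share of the span marked and in domain score. The median share of the span was 69.9% (95% interval 63.5% to 74.1%), against 70.8% (67.6% to 74.2%) in the 1372 genes at or below the median. Whole coverage was found in 29 of the 196 (14.8%, exact 95% interval 10.1% to 20.6%), against 19.0% (17.0% to 21.2%). A domain ran past both ends in 38 of the 196 (19.4%, 14.1% to 25.6%), against 25.1% (22.8% to 27.5%). Both shares were thus lower above the median, with overlapping intervals. The median of the highest domain score per kb was 565.8 (536.7 to 591.7) and 549.0 (537.9 to 560). Their median span was 1734 bp (1380 to 1932), against 1944 bp (1876 to 2008).

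H3K4me3 below the minimum or beside the gene was found at a lower share of the genes above the median than of the rest, with overlapping intervals. Some H3K4me3, below the minimum, lay in 5 of the 196 (2.55%, exact 95% interval 0.83% to 5.85%) and in 59 of the 1372 others (4.30%, 3.29% to 5.51%). H3K4me3 within 1 kb outside an end was found at 20 of the 196 (10.2%, 6.35% to 15.3%) and at 190 of the others (13.8%, 12.1% to 15.8%). Over all listed genes that share was 54.7%, but the choice of genes bears on it, since a domain lying across the end would count inside the span. Overlap with a neighbouring listed gene, where reads could not be assigned without strand, was found in 12 of the 1568 genes (0.765%), against 0.929% of all listed genes, and in none of the 196.

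Above-median mRNA was found among wholly and among partly covered genes. It was reached by 29 of 290 wholly covered genes (10%) and 167 of 1278 partly covered genes (13.1%). Within spans of 500 bp to 1 kb the shares were 12.4% (exact 95% interval 6.56% to 20.6%) and 20.7% (14.5% to 28.0%), and within 1 to 2 kb they were 9.48% (4.83% to 16.3%) and 13.0% (9.92% to 16.5%). Under 500 bp they were 10.7% (3 of 28) and 18.75% (3 of 16), and at 2 to 3 kb 5.26% (2 of 38) and 10.1% (34 of 336). The share was lower for wholly covered genes in each of these 4 classes, with overlapping intervals in each. Of the 186 above-median genes with a listed gene on each side, 91 (48.9%, 41.5% to 56.3%) had more mRNA than both. Among all listed genes above that median the share was 55.9%. Their neighbours carried H3K4me3 only in 59.1% of places (54.0% to 64.1%), against 62.7% (60.8% to 64.6%) beside the genes at or below the median.

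The highest coverage was found in Aa_G113000 on chromosome 8 (17488007 to 17491027), at 471.8. Its 3021 bp lay wholly inside a domain of 3900 bp that ran past it by 406 and 473 bp. The listed genes on either side, 4950 and 9677 bp away, had coverages of 9.43 and 1.07. The next among wholly covered genes was Aa_G509930 on chromosome 5 (238238 to 239132), at 64.0, in a domain of 2400 bp. Its neighbours, 3216 and 5024 bp away, had 9.33 and 12.5, and the second of them also carried H3K27me3 alone.

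Among partly covered genes the highest values were 314.3 and 292.7. The first was that of Aa_G438690 on scaff_55026_1 (6206 to 7273), with H3K27me3 over 93.2% of 1068 bp. The second was that of Aa_G222150 on chromosome 7 (6395520 to 6397018), where a domain of 600 bp covered 27.9% of the span at its right end. It was the only one of the 10 genes above 100 with under 75% of its span covered. Of all 1568 genes, 433 had 75% to under 100% of the span covered and 290 the whole. All 10 were at 0 bp of H3K4me3 and had none within 1 kb, and 8 were shorter than 2 kb. Of the 1568 genes, 1504 were at 0 bp of H3K4me3, 1358 had none within 1 kb and 737 were of at least 2 kb. Lack of H3K4me3 was thus shared by most of the set. The 9 of the 10 genes with a listed gene on each side were above both of these in coverage. So were 96.1% of all listed genes above 100.

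The neighbours of these genes mostly carried H3K4me3 only. Of the 3011 places next to them filled by a listed gene, 62.3% (exact 95% interval 60.5% to 64.0%) held a gene with H3K4me3 only, against 70.3% next to all listed genes. Genes with H3K27me3 only filled 12.9% (11.7% to 14.1%), against 6.53%. Genes with H3K4me3 and H3K27me3 filled 7.41% against 5.15%, and genes with no mark 10.8% against 11.7%. Next to genes with H3K4me3 and H3K27me3, those with H3K27me3 only filled 9.40% of places (8.25% to 10.6%). Genes with both of these marks filled 10.3% there. The neighbours' median mRNA coverage was 5.54 (95% interval 5.22 to 5.87), against 5.99 (5.91 to 6.07) for neighbours of all listed genes.

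Most of these genes had less mRNA than both neighbours. Of the 1477 genes with a listed gene on each side, 916 (62.0%, exact 95% interval 59.5% to 64.5%) were below both in coverage, against 32.1% of all listed genes and 56.0% of genes with no mark. Genes with H3K4me3 only that lay next to one of the set had a median coverage of 8.42 (95% interval 7.88 to 8.98, n = 1807), and the other genes with H3K4me3 only had 8.00 (7.83 to 8.16, n = 14738). At under 1 kb from a gene of the set, the median was 8.50 (7.47 to 9.48, n = 335). At 1 to 5 kb it was 7.70 (6.87 to 8.94) and at 5 kb or more 8.59 (7.95 to 9.62).

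The genes stood in wider spaces than the average listed gene. The interval to the neighbouring listed gene had a median of 5124 bp (95% interval 4851 to 5515, n = 3011), against 2504 bp over all listed genes and 1665 bp beside genes with no mark. Beside genes with H3K4me3 and H3K27me3 it was 5744 bp (5380 to 6114), close to the first value. Intervals under 1 kb made up 16.1% beside the set (14.8% to 17.5%) and 35.6% beside all listed genes.

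The share of genes with H3K27me3 only was higher where there was more space around a gene, up to intervals of 8 to 16 kb. Where the mean of the intervals on both sides was under 0.5 kb, it was 22 of 2713 genes (0.811%, exact 95% interval 0.509% to 1.23%). It was 2.55% at 0.5 to 1 kb, 4.36% at 1 to 2 kb, 6.91% at 2 to 4 kb, 8.65% at 4 to 8 kb and 9.18% at 8 to 16 kb (8.29% to 10.1%). At 16 kb or more it was 8.81% (7.82% to 9.87%). The share of genes with H3K4me3 and H3K27me3 took a like course. It was 0.958% in the first class, 8.17% at 8 to 16 kb and 7.72% at 16 kb or more. The mRNA coverage of the selected genes stayed between medians of 1.41 and 1.62 over these classes, while that of all listed genes went from 6.36 in the first to 4.88 in the last.

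**Figure D4:**
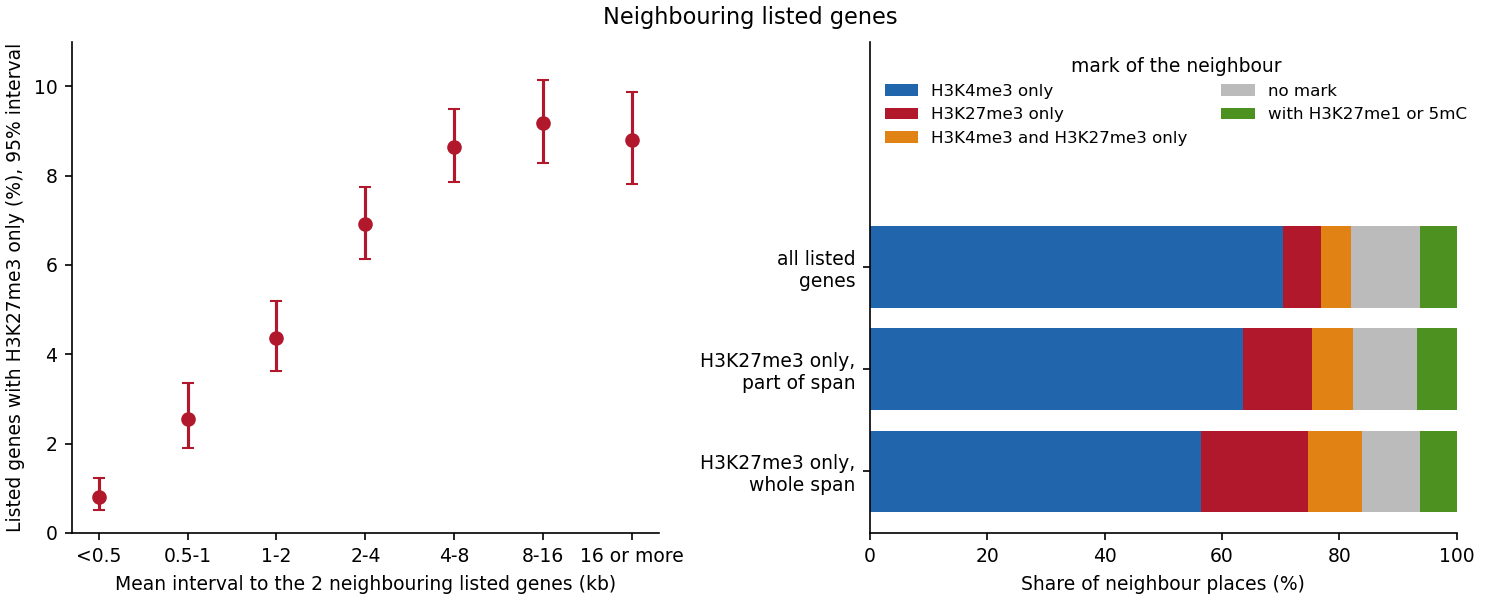
Left, share of listed genes that carry H3K27me3 only (%, with exact 95% intervals) by the mean interval in kb to the listed genes on both sides; it goes from 0.811% to 9.18% and is 8.81% in the last class. Right, marks of the neighbouring listed genes as shares of all neighbour places (%) for wholly covered genes, partly covered genes and all listed genes.

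Most of the genes stood alone. In 1217 of 1568 cases neither neighbour belonged to the set. The other 351 (22.4%, exact 95% interval 20.3% to 24.5%) lay next to another gene of the set, against 11.7% of all listed genes. Among genes with H3K4me3 and H3K27me3, 16.8% (14.8% to 19.0%) lay next to a gene of the set. With neighbours counted only within 5 kb, the shares were 12.6% (11.02% to 14.4%) and 5.83%. Next to another gene of the set were 31.0% of wholly covered genes (25.8% to 36.7%) and 20.4% of partly covered ones (18.2% to 22.7%). The 351 genes formed 128 pairs, 22 runs of 3, 6 runs of 4 and 1 run of 5.

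Adjoining genes of the set rarely shared a domain. Of 194 adjoining pairs, 14 (7.22%, exact 95% interval 4.001% to 11.8%) lay on 1 common domain, and their median interval was 4187 bp (95% interval 3405 to 5441). Both genes were above the median mRNA coverage of all listed genes in 8 pairs, 1 was in 41 pairs and neither was in 145. Spearman rho of mRNA coverage within these pairs was 0.25 (n = 194 pairs), and 0.05 over all 23059 adjoining listed pairs. Pairs within a run share a gene, and the coefficients are descriptions of 1 library.

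The run of 5 on chromosome 4 went from Aa_G364670 (3592506 to 3593966) to Aa_G602130 (3623759 to 3625805). In order along the chromosome, mRNA coverage was 1, 5.71, 6.005, 12.5 and 1. H3K27me3 covered 79.8%, 100%, 39.4%, 100% and 99.8% of their spans. The genes at both ends of the run were at the lowest value, and only the fourth was well above the median of all listed genes. The 5 genes lay on separate domains except Aa_G602160 and Aa_G602150, 12 bp apart, which shared a domain of 300 bp. The fourth gene lay in a domain of 6000 bp that ran 3494 bp past it. H3K4me3, H3K27me1 and 5mC domains lay in the intervals between the genes, and the flanking listed genes had coverages of 135.4 and 7.47.

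**Figure D5:**
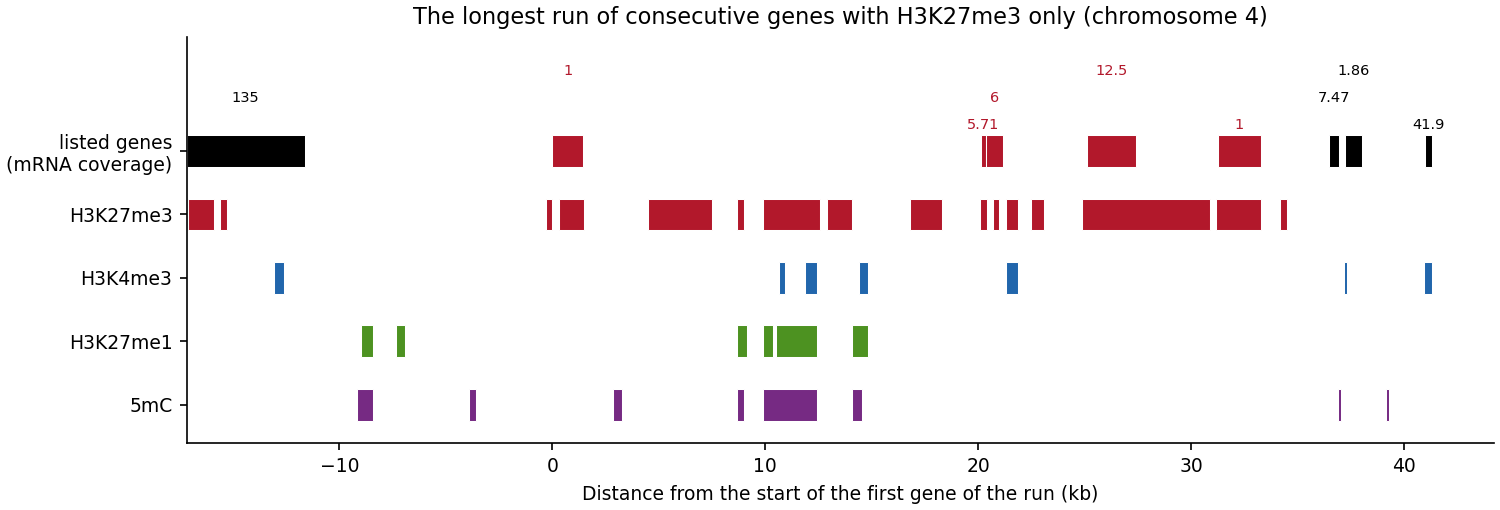
Listed genes and domains of each mark around the longest run of genes with H3K27me3 only, by distance in kb from the start of the first gene of the run. Genes of the run are red and others black, and the number above each is its mRNA coverage (authors' signal): the 5 genes of the run stand at 1, 5.71, 6.005, 12.5 and 1.

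The largest excess over both neighbours was found in a pair of short genes. Aa_G85260 on chromosome 8 (969196 to 969980) had a coverage of 218.2 with 89.8% of its span in H3K27me3, while the listed genes beside it had 1 and 3.13. Only 3 bp lay between it and the second of these. Aa_G228400 on chromosome 1 (1107793 to 1108606) had a coverage of 107.1 with 87.0% in H3K27me3, and its neighbours had 1.07 and 1. Their log2(coverage + 1) exceeded that of the higher neighbour by 5.73 and 5.71. In each, a domain of 900 bp began outside the left end, by 195 and 192 bp, and ended inside the gene.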

How the data were processed

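The submitters' processing notes name Bowtie and SICER, a caller of broad domains, with no version. Genome build, calling parameters and the way replicates were combined: not given in the sources used here. The authors deposited 1 list of domains per mark with an unlabelled score per domain, used here only within a list, and a table of mRNA coverage, a signal never below 1 whose scaling is not stated, with gene coordinates. Domain starts were read as 0-based and ends as inclusive. Coordinates are 1-based on the authors' assembly. Overlaps, reach, neighbours (the next listed gene by start) and medians were computed in Python 3.11.15 with numpy 2.4.6, pandas 2.3.3 and scipy 1.17.1, and the overlap code was tested on simulated data. Shares carry exact (Clopper-Pearson) and medians order-statistic 95% intervals. Replicates are not known to be separate plants. The genes and the classes described were chosen with earlier results of these data known. Named genes were set by rule: highest mRNA (wholly and partly covered), longest wholly covered, longest domain, longest run, largest excess over neighbours, and nearest to the minimum. The longest gene was added after its values were seen.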

Additional observations from a re-analysis of the deposited data

How the results depend on the processing

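Of 72 alternative values for 8 results, 60 stayed within the 95% interval of the reported value (for the number of genes, within 1.5 times), and 12 did not. Wholly covered genes went from 18.5% to 26.4% when 50% of the span was required in H3K27me3 and under 10% in each other mark, 22.7% with the upper 50% of domains by score per kb, 23.3% with domains of at least the median length, 28.4% counted from 90% of the span, and 26.8% with domains joined across gaps of up to 600 bp, the last chosen after seeing the data. Genes with a domain past both ends went from 24.4% to 34.8%, 26.97% and 27.7% under the first 3 of these settings, and to 28.4% with joined domains. Genes next to another of the set went from 22.4% to 18.7% and 19.5% by score and by length, and to 12.6% within 5 kb. The number of genes ranged from 1065 to 1670. Median mRNA coverage (1.44 to 1.52), the share above the median of all genes (11.7% to 13.5%) and the share below both neighbours (59.7% to 64.0%) stayed within their intervals in every setting run for them; the last was added after seeing the data. The difference between wholly and partly covered genes stayed within its bounds but turned negative at 90% of the span (-0.01) and in spans of 1 to 3 kb (-0.08). No paired analysis was possible because the 2 libraries of a mark share 1 list, and no replicate could be left out. Depth is unknown.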

Other observations

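Gene identifiers run in steps of 10 along the sequences, and some numbers are skipped among the listed genes. Between neighbours whose numbers differed by at most 100, the numbers adjoined in 80.0% of places next to genes with H3K27me3 only (1911 of 2389, exact 95% interval 78.3% to 81.6%), 80.9% next to genes with H3K4me3 and H3K27me3 (79.0% to 82.7%), 87.1% next to genes with no mark (86.1% to 88.0%) and 85.4% over all listed genes. The first and second sets thus had the larger shares of skipped numbers beside them. What the skipped numbers stand for is not given in the files, and their part in the wider intervals around these genes was not tested.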
